A study of Mus musculus with 26 samples.

Results

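A group of 10 genes that restrain MAP kinase signalling were followed through a pulse and chase of newly made RNA, taken by gene symbol from the level tables and half-life tables of 2 cell types. They are 5 dual-specificity phosphatases (Dusp1, Dusp4, Dusp6, Dusp10, Dusp16), 3 Sprouty genes (Spry1, Spry2, Spry4) and 2 Spred genes (Spred1, Spred2). All 10 were among the 9751 transcripts listed for oligodendrocytes (OLs), 8 were among the 8530 listed for oligodendrocyte progenitor cells (OPCs), and those 8 had a half-life in every replicate. Dusp4 and Dusp10 were listed for OLs only, and their level in OPCs was not analysed here.

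The OPCs were derived from mouse pluripotent stem cells and grown in a medium with bFGF and PDGFA, each at 20 ng/mL (3 replicates). The OLs were differentiated from 2 of these OPC replicates, after passages in OPC medium without bFGF, in a medium with noggin, IGF-1, cyclic AMP, NT3 and T3 (thyroid hormone), and neither growth factor of the OPC medium is listed for it (2 replicates). Cells were given 5-ethynyl uridine (5-EU), a uridine analog that is built into new RNA, for 24 h, the OLs from 40 h of differentiation on, and uridine then replaced it for a chase sampled at 0, 1, 2, 4 and 6 h. Labelled RNA was coupled to biotin, captured on streptavidin beads and sequenced, which gave 15 OPC and 10 OL libraries. Levels below are FPKM, the fragments on a transcript divided by its length and the library's depth, with the later time points put on the 0 h scale by the authors through labelled spike-in RNA. Cell type and medium cannot be told apart in this design, and in a culture fewer cells of a type and less RNA per cell cannot be told apart either. The study does not name the OPC replicates from which the OLs came, so p-values of the half-life and 0 h comparisons measure the spread between these cultures. Those of the slopes, their differences and the first hour rest on the scatter of time point libraries within cultures.

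The 25 libraries summed to 225487 to 432287 FPKM over the listed transcripts, and read totals are not given in the sources used here. All 6 OL markers were listed for OLs, with a summed 0 h level of 2750 to 5990 FPKM, and 2 of the 6 were listed for OPCs, at 37.6 to 55.1 FPKM. The 4 OPC markers summed to 186 to 307 FPKM in OPCs and to 500 to 530 FPKM in OLs, where Gpr17, which marks cells committed to differentiate, made up 323 and 299 FPKM of that sum. Pdgfra, the PDGFA receptor, was higher in both OLs than in the OPCs, Cspg4 was lower in both (30.7 and 29.9 against 35.7 to 55.7 FPKM), and Ptprz1 overlapped. No microglial or pluripotency marker was listed, and of the 4 astrocyte markers Aldoc made up the OPC signal, at 177 to 213 FPKM. In OLs the astrocyte markers summed to 172 to 231 FPKM, with Aldoc at 163 and 220, Gfap at 6.86 and 8.12 and Aldh1l1 at 1.72 and 2.44 FPKM, and the neuronal marker Syt1 was at 3.06 and 1.38 FPKM. Gfap, Aldh1l1 and Syt1 were listed for OLs only. The part of other cells in the results was not tested.

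The extracellular signal-regulated kinases (ERK) are the end of a chain that runs from growth factor receptors through Ras, Raf and Mek, and active ERK switches on the genes of its own inhibitors. Dusp6 encodes a cytoplasmic phosphatase selective for ERK, Dusp4 a nuclear one, and Dusp1 a nuclear phosphatase of ERK, p38 and JNK, while the products of Dusp10 and Dusp16 act mainly on p38 and JNK. Sprouty proteins dampen receptor tyrosine kinase signals upstream of ERK, and Spred proteins recruit neurofibromin, a brake on Ras, to the membrane. In oligodendroglia, FGF and PDGF hold progenitors in a dividing state through this pathway. Many inhibitors of this kind are made from short-lived mRNAs, and AU-rich elements in the 3′ untranslated region (3′ UTR), built around the pentamer AUUUA, are a known feature of such mRNAs.

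The sequences below show that pentamer, in capitals, in the 3′ UTRs of 4 of the phosphatase and Sprouty genes whose labelled RNA fell fastest in OPCs, and in Spred1, whose 3′ UTR holds the most copies among the members. Each is the stretch of 29 bases that holds the most AUUUA pentamers, written 5′ to 3′ on the gene's strand, from GENCODE transcripts on GRCm38 (ENSMUST00000025025 for Dusp1, ENSMUST00000020118 for Dusp6, ENSMUST00000038569 for Spry1, ENSMUST00000022709 for Spry2 and ENSMUST00000028829 for Spred1).
Dusp1: gcugguccuuAUUUAUUUAacaccccccu
Dusp6: uuuugagcuggaAUUUAuuauaagaaugu
Spry1: auuguaaagaauAUUUAuuaugcgaaucu
Spry2: aguguaaagaauAUUUAuuugaaguuuua
Spred1: uaagaaagcAUUUAuAUUUAuaugacagc
The Dusp1 site lies at chr17:26506157-26506185 on the minus strand, that of Dusp6 at chr10:99267420-99267448 on the plus strand, that of Spry1 at chr3:37644409-37644437 on the plus strand, that of Spry2 at chr14:105892092-105892120 on the minus strand and that of Spred1 at chr2:117179570-117179598 on the plus strand. In Dusp1 the 2 pentamers overlap by 1 base within 690 bases of 3′ UTR that hold 4 in all. Spry1 and Spry2 share a run of 17 bases around theirs, uguaaagaauAUUUAuu, which occurred in these 2 of the 9867 listed transcripts with a 3′ UTR of at least 50 bases.

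All 10 members held AUUUA in the 3′ UTR, as did 70.7% of those 9867 transcripts and 85.3% of the 5940 whose 3′ UTR was as long as the members' (690 to 4330 bases). The longer form UAUUUAU was found in 5 of 10 (Dusp1, Spry1, Spry2, Spry4, Spred1), against 30.4% of all and 37.5% of those of like length. Per kilobase, Dusp1 held 5.80 AUUUA, more than 95.6% of the transcripts, Spred1 held 2.77 over its 4330 bases, and Dusp6 held 0.841. The median over all was 1.37 per kilobase, so the density ranged from below to well above it among the members. A match of these letters is a description of the sequence and not of a bound factor.

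At the start of the chase, 4 of the 8 members listed for both cell types were lower in OLs: Spry1, Spry4 and Dusp6 by about an order of magnitude and Spry2 by less. No member was called higher. Among all 8177 transcripts tested, 15.8% were called lower and 13.8% higher in OLs at an adjusted p under 0.05 (limma on log2(FPKM + 1)). The median log2 change was -1.02 over the 8 members and -0.01 over all transcripts. Both OL replicates lay below all 3 OPC replicates for 6 of the 8 members, where 31.4% of all transcripts did so.

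Dusp6, the ERK phosphatase, stood at 374, 388 and 312 FPKM in OPC replicates 1, 2 and 3 and at 35.7 and 54.9 FPKM in OL replicates 1 and 2. The groups were far apart, and Dusp6 ranked 176th, 121st and 184th of 8530 transcripts in the OPCs. The mean level was 358 ± 40.2 FPKM (SD, n = 3) in OPCs and 45.3 ± 13.6 FPKM (SD, n = 2) in OLs, 7.90 times lower (-2.98 ± 0.26 log2, SE; adjusted p 0.000262, limma).

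Dusp1 stood at 10.7, 16.9 and 25.8 FPKM in OPCs and at 9.98 and 8.56 FPKM in OLs. Its OPC replicates spread widely, and the difference of -0.79 ± 0.34 log2 (SE) was not called (adjusted p 0.113, limma). It passed when OPC replicate 1, the lowest of the OPCs, was left out (adjusted p 0.0142). Dusp16, a phosphatase of p38 and JNK, was at 10.9, 15.8 and 19.1 FPKM in OPCs and 17.2 and 18.3 FPKM in OLs, so that the groups overlapped (adjusted p 0.524, limma).

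Of the genes with an OL level alone, Dusp10, which acts on p38 and JNK, was at 15.2 and 13.6 FPKM, close to Dusp16. Dusp4, the nuclear ERK phosphatase, was the lowest member, at 1.57 and 4.46 FPKM, near the 1 FPKM that a transcript needed at 0 h to be kept by the authors.

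Spry1 was at 110, 126 and 94.8 FPKM in OPCs and at 12.3 and 8.30 FPKM in OLs. With a mean 10.7 times lower in OLs, it had the largest change of the members, -3.31 ± 0.25 log2 (SE) with an adjusted p of 0.000195 (limma). Spry4 replicates were tightly grouped in OPCs, at 79.0, 81.0 and 78.9 FPKM, and stood at 6.11 and 11.3 FPKM in OLs, 9.17 times lower by the means (-3.11 ± 0.27 log2, SE, with an adjusted p of 0.000271 by limma). These Sproutys, like Dusp6, left no overlap between the cell types.

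Spry2 remained a well expressed member in OLs, at 52.7 and 86.1 FPKM against 134, 178 and 172 FPKM in OPCs. The groups did not overlap, and OLs were at -1.24 ± 0.28 log2 (SE) relative to OPCs, at an adjusted p of 0.0131 (limma). It missed the threshold without OPC replicate 3 (adjusted p 0.055, limma). Without OL replicate 1, which leaves 1 OL culture and no spread among OLs, the change was -0.89 log2.

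The Spred genes differed less between the cell types. Spred1 was at 92.7, 133 and 99.3 FPKM in OPCs and at 85.7 and 98.3 FPKM in OLs, which overlapped (-0.22 ± 0.24 log2, SE, at an adjusted p of 0.516 by limma). It was thereby the highest of the 10 in OLs by its mean, 92.0 ± 8.95 FPKM (SD, n = 2), above Spry2 at 69.4 ± 23.7 FPKM, and these neighbours did not differ beyond the spread of Spry2. Spred2 was at 14.0, 22.4 and 17.2 FPKM in OPCs and 7.03 and 13.2 FPKM in OLs, lower in both OL replicates but not called (adjusted p 0.0859, limma), and it passed without OPC replicate 1 (adjusted p 0.0423).

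FPKM are per length, but differences between genes in labelling and capture were not corrected, so an order between genes is a description. The order of the mean levels ran in OPCs from Dusp6 through Spry2, Spry1, Spred1 and Spry4 to Spred2, Dusp1 and Dusp16. Spry1 at 110 ± 15.8 FPKM and Spred1 at 108 ± 21.6 FPKM did not differ beyond their SD (n = 3), nor did Spred2 at 17.9 ± 4.24, Dusp1 at 17.8 ± 7.57 and Dusp16 at 15.3 ± 4.17 FPKM. In OLs it ran from Spred1, Spry2 and Dusp6 through Dusp16 and Dusp10 to Spry1, Spred2, Dusp1, Spry4 and Dusp4. Spry1 at 10.3 ± 2.86, Spred2 at 10.1 ± 4.34, Dusp1 at 9.27 ± 1.01 and Spry4 at 8.68 ± 3.63 FPKM did not differ beyond their larger SD (n = 2).

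**Figure D1:**
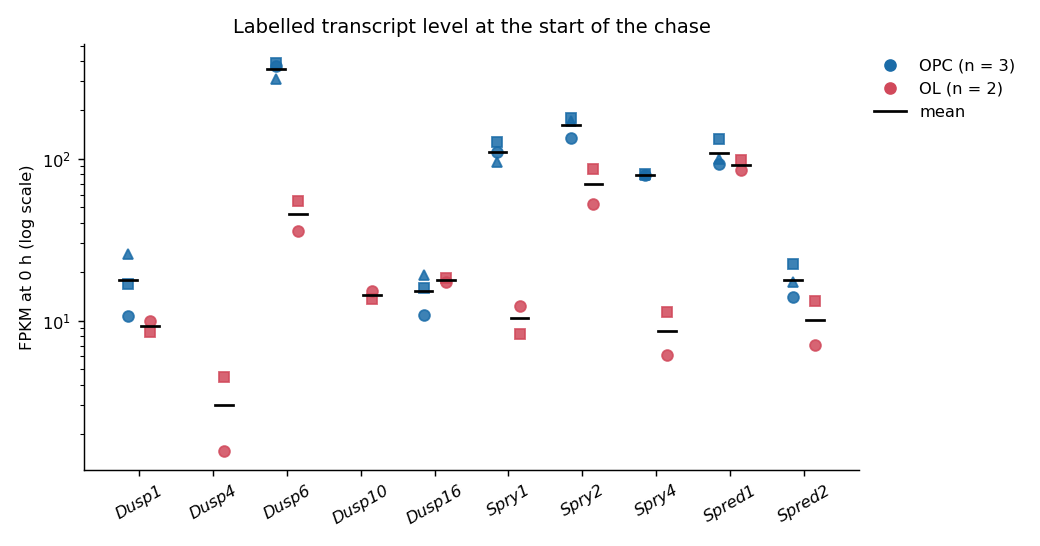
Labelled level of each member at 0 h in FPKM on a log axis, with one point per replicate (3 OPC in blue, 2 OL in red, shapes for replicate numbers) and a bar at the mean. Spry1, Spry4 and Dusp6 show the widest gaps, while the points of Spred1 and Dusp16 overlap, and Dusp4 and Dusp10 have OL points only.

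During the chase, all 8 members fell in OPCs and all 10 in OLs, as most transcripts did: 81.7% of 8530 transcripts were called falling in OPCs and 68.4% of 9751 in OLs (slope of log2(FPKM + 1) per hour, limma adjusted p under 0.05). Slopes in OPCs ran from -0.65 log2 per hour for Spry1 and Dusp6 to -0.48 for Dusp16, with a median of -0.59 over the members and -0.38 over all transcripts. Those in OLs ran from -0.53 for Spry2 and -0.51 for Dusp6 to -0.22 for Dusp1 and -0.16 for Dusp4, with a median of -0.34 against -0.20. The count depends on the scale: when each library was scaled to its replicate's 0 h median, which removes that fall, 0 of 8 OPC slopes were called (-0.39 to -0.08), where 25.4% of all transcripts were called falling, and 5 of 10 OL slopes (Dusp6, Dusp10, Dusp16, Spry2, Spred1), where 20.1% were. In OLs, the Dusp1, Dusp4 and Spry4 calls were lost without OL replicate 2, with adjusted p of 0.893, 0.734 and 0.117 (limma), and that of Dusp4 also without the replicate block (adjusted p 0.0507) and without the 1 h libraries (0.0655). The Dusp1 call was lost without the 6 h libraries too (adjusted p 0.134, limma).

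Dusp6 labelled RNA in OPCs was 74.4, 98.8 and 127 FPKM after 1 h, and 28.9, 13.4 and 34.7 FPKM after 2 h. That left 7.74%, 3.45% and 11.1% of the 0 h level at 2 h, where the median transcript kept 54.7%, 83.3% and 72.0% in the same replicates. It was 26.0, 17.5 and 14.6 FPKM at 4 h and 24.4, 11.5 and 20.3 FPKM at 6 h. A deposited half-life of 0.429 h, that of OPC replicate 1, would leave 0.00616% at 6 h by a single exponential, whereas 6.52% was measured, the largest such ratio among the members. The measured level at 6 h exceeded the one from the half-life in 18 of the members' 24 OPC values and 14 of their 20 OL values. These values include replicates of the same gene, and the count was not made over all transcripts, so it is not a trait of the members. In OLs Dusp6 kept 18.2% and 24.2% at 2 h, against medians of 72.8% and 62.8%.

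Spry4 went the same way in OPCs, from the 0 h level to 7.80, 3.88 and 8.90 FPKM at 2 h, which is 9.89%, 4.80% and 11.3% of its start. In OLs it kept 40.6% and 37.7%, more than in any OPC replicate. Spry1 kept 10.6%, 6.64% and 21.9% in OPCs at 2 h, and 31.0% and 79.8% in OLs. Spry2 kept 9.09%, 9.28% and 22.0% in OPCs, and 38.1% and 74.1% in OLs. For each Sprouty the OPC and OL replicates did not overlap at 2 h, and the OL replicates of Spry1 and Spry2 differed widely. The share of all transcripts without overlap at 2 h was not counted, so these gaps are a description.

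Dusp1 was among the transcripts with the least left in OPCs at 2 h, at 1.20, 0.519 and 1.52 FPKM, or 11.2%, 3.08% and 5.89%. It was listed at 0 in OPC replicates 2 and 3 at 4 h. In OLs its course was different in each replicate: replicate 1 went from 9.98 FPKM to 4.81, 4.79, 6.92 and 6.78 FPKM over the chase, and replicate 2 rose from 8.56 FPKM to 14.8 at 1 h and 12.3 at 2 h, then fell to 3.53 and 1.27. At 2 h replicate 2 thus kept 143% of its 0 h level, above 99.0% of the transcripts of that library.

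The Spred transcripts varied widely between the OPC replicates. Spred1 kept 35.6%, 51.4% and 71.2% at 2 h in OPCs and 60% and 58.3% in OLs, within the OPC range. Spred2 kept 11.2%, 56.5% and 92.8% in OPCs, a spread wide enough to enclose both OL values of 37.4% and 34.5%. Dusp16 kept 18.4%, 37.6% and 51.6% in OPCs and 29.8% and 55.5% in OLs, which overlap too.

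In OLs Dusp10 kept 30.1% and 56.7% at 2 h, close to Dusp16. Dusp4 kept 81.0% and 58.2%, near the medians of all transcripts, at levels of 1.27 and 2.60 FPKM that leave little room to follow a decline.

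**Figure D2:**
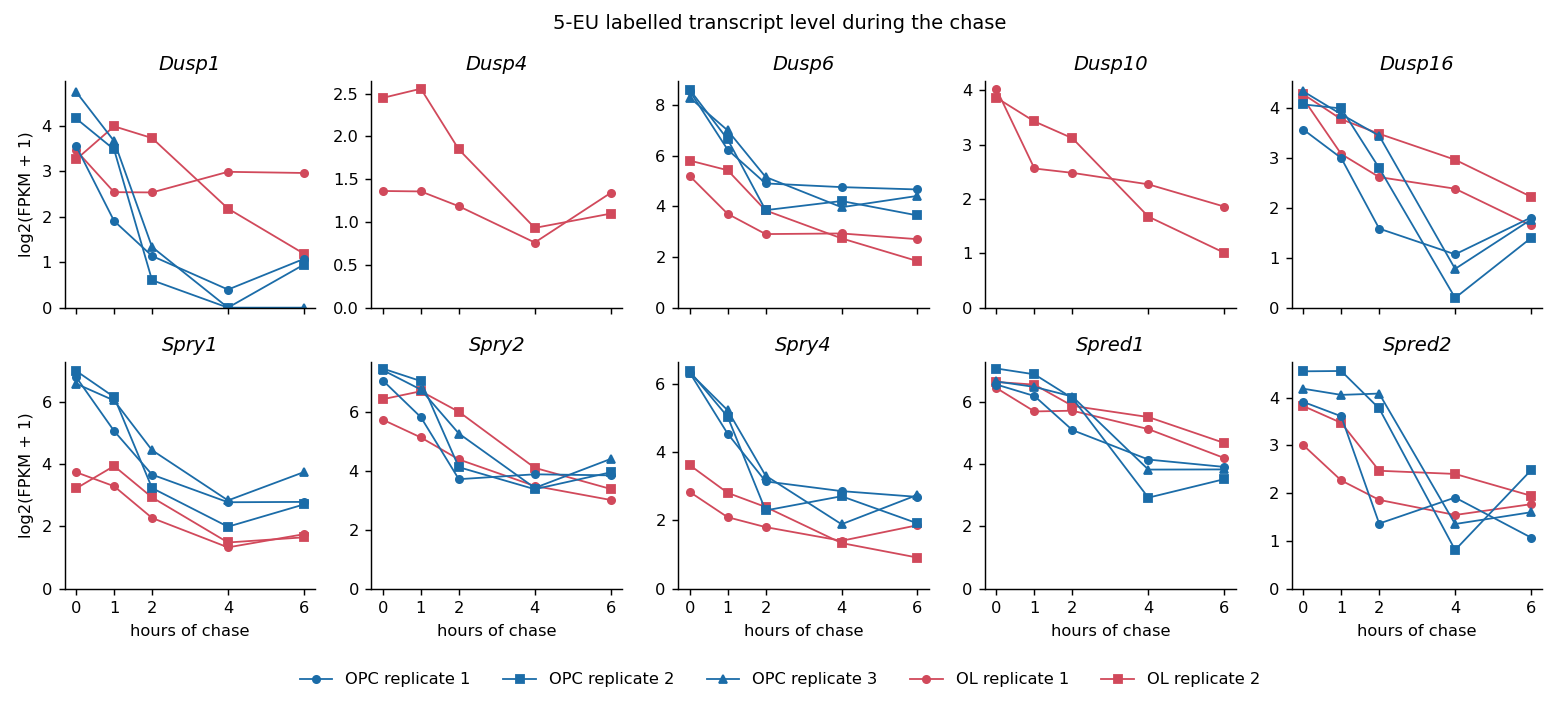
Level of each member over the chase as log2(FPKM + 1) against hours, with one line per replicate (OPC blue, OL red) and a vertical scale of its own in each panel. In OPCs Dusp6, Spry1, Spry2 and Spry4 drop steeply to 2 h and change less from 4 to 6 h, Spred1 drops mainly after 2 h in replicates 2 and 3, and Dusp1 follows a different course in each OL replicate.

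**Figure D3:**
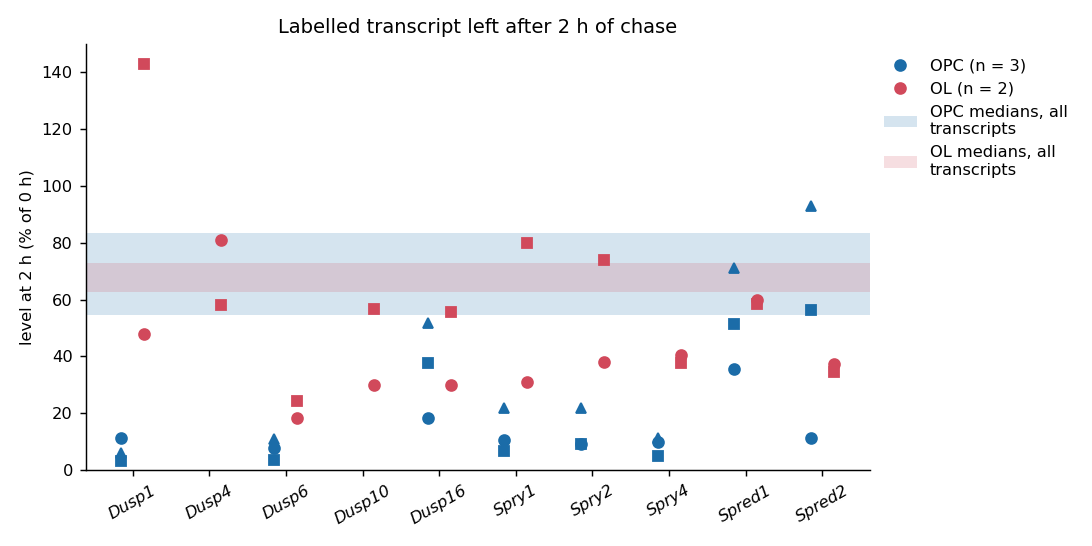
Level at 2 h as a percent of the 0 h level, one point per replicate, with bands from the lowest to the highest replicate median over all transcripts (OPC blue, OL red). Dusp1, Dusp6, Spry1, Spry2 and Spry4 lie at or below 22.0% in every OPC replicate, under the band, and the OL points of each lie above its OPC points. How many of all transcripts show such a gap was not counted.

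The first hour was also tested by itself. No member passed in either cell type: 0 of 8 in OPCs, where 0.0% of 8530 transcripts were called lower (limma), and 0 of 10 in OLs, where 0.0103% of 9751 were. At an unadjusted p under 0.05, 5 members were lower in OPCs (622 transcripts in all) and 2 in OLs (656 in all). Dusp6 had the largest change of the members, -1.86 ± 0.35 log2 in OPCs (SE, limma p 0.000122, adjusted p 0.227). Spry4 followed at -1.41 ± 0.35, Dusp1 at -1.14 ± 0.45, Spry1 at -1.04 ± 0.36 and Spry2 at -0.78 ± 0.35, against a median of -0.31 over all transcripts. Spred1 and Spred2 changed by -0.24 ± 0.37 and -0.14 ± 0.52, less than their error.

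Half-lives, which the authors fitted to each transcript in each replicate with a ceiling of 6 h, were compared to ask whether the members decay differently in the 2 cell types. None of the 8 passed (limma on log2 half-life), where 3.39% of 8112 transcripts were called longer in OLs. Of the 8, 4 had an unadjusted p under 0.05, as did 1866 of the 8112. Both OL half-lives exceeded all 3 OPC half-lives for 6 members (Dusp1, Dusp6, Spry1, Spry2, Spry4, Spred1), and this held for 35.8% of all transcripts. The median log2 change was 0.92 over the members and 0.37 over all. In an exact two-sided permutation test of the hours, which cannot go below 0.1 with 3 against 2 replicates, Dusp1, Spry1, Spry2, Spry4 and Spred1 reached 0.1, Dusp6 reached 0.2, Dusp16 0.7 and Spred2 1.

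Dusp6 had the shortest mean half-life of the members in both cell types. It was 0.429, 0.506 and 0.767 h in OPC replicates 1, 2 and 3, shorter than all but 0.7%, 0.1% and 2.3% of transcripts, and 0.813 and 1.22 h in OLs, with 3.1% and 2.7% of transcripts shorter. In rank it therefore stayed near the bottom of both lists, and the OL values were 0.85 ± 0.36 log2 higher (SE), with an adjusted p of 0.295 (limma). Centred on each replicate's median it was -0.05, a step that moved the median change over all transcripts from 0.37 to -0.53, and it was 0.72 when half-lives were refitted after each replicate was put on the mean decay curve, where that median was 0.

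Dusp1 had the largest change of the members. Its half-life was 0.509, 0.760 and 0.704 h in OPCs, where at most 1.4% of transcripts had a shorter one, and 6.00 and 3.13 h in OLs, where 60.3% and 37.5% did. The OPC values of 0.760 and 0.704 h are among those that recur in the authors' fits, described below. The groups did not overlap, and the difference of 2.74 ± 0.39 log2 (SE) missed the threshold, with a limma adjusted p of 0.0641 (0.0509 to 0.443 in the alternative fits). The value of 6.00 h is the ceiling, given to the OL replicate whose level dipped and rose again, and Dusp4 took it in the same replicate, with 2.56 h in the other.

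Spry2 half-lives were 0.793, 0.943 and 0.967 h in OPCs and 1.62 and 1.96 h in OLs, about 1 log2 unit longer (0.99 ± 0.14, SE, limma adjusted p 0.0646). Spry4 had 0.546, 0.738 and 0.821 h against 1.54 and 1.39 h (1.08 ± 0.22, adjusted p 0.102, limma). For Spry1 they were 0.568, 0.760 and 1.01 h in OPCs and 1.32 and 3.06 h in OLs, more than 1 h of difference within the OLs (1.40 ± 0.51, adjusted p 0.240, limma). Centred on the replicate medians, these changes were 0.09, 0.18 and 0.50, and refitted on the mean decay curve they were 0.64, 1.02 and 0.89.

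Spred1 lasted longer than the Sproutys in each cell type by its mean, at 1.62, 1.96 and 2.06 h in OPCs and 2.71 and 3.00 h in OLs (0.61 ± 0.14, SE, limma adjusted p 0.119), and its change turned to -0.29 when centred and was 0.32 on the mean decay curve. Spred2 had 1.70, 2.43 and 1.96 h in OPCs and 1.41 and 2.47 h in OLs, and Dusp16 had 1.21, 1.42 and 2.00 h against 1.14 and 2.58 h. Both overlapped between the cell types (adjusted p 1 and 0.963, limma). Dusp10, in OLs alone, had 1.15 and 1.96 h.

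The members' half-lives were mostly short within each library: 8, 7 and 8 of 8 were below the median of all transcripts in OPC replicates 1, 2 and 3, and 8 and 10 of 10 in OL replicates 1 and 2. Their median was 0.68, 0.851 and 0.988 h in OPCs, against 2.33, 2.05 and 2.79 h over all, and 1.48 and 2.52 h in OLs, against 4.15 and 4.05 h. Of the members' 44 half-lives, 7 sat within 0.001 h of 1 of 4 values (0.704, 0.760, 1.858 and 1.957 h) that recur among the least absolute deviation fits of the authors, and 2 were at the ceiling. In OPC replicate 2, where 3 of the 7 lie, Spred1 was at 1.957 h, a value shared by 25.6% of all transcripts. Dusp1 and Spry1 were there at 0.760 h, shared by 0.848%.

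**Figure D4:**
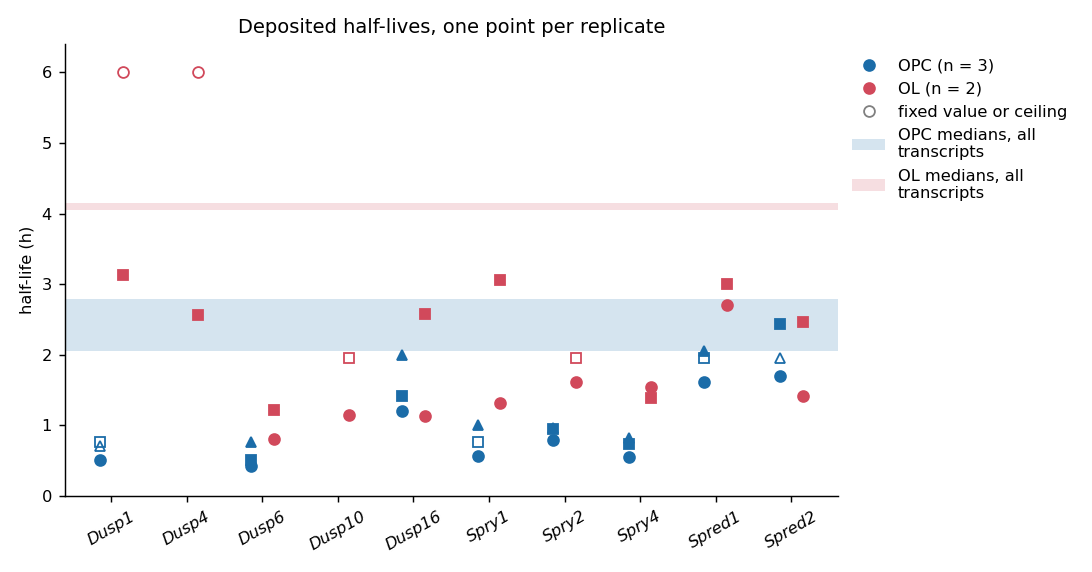
Deposited half-lives of the members in hours, one point per replicate (OPC blue, OL red), with open symbols at 1 of the 4 recurring values (fixed value in the legend) or at the 6 h ceiling and bands from the lowest to the highest replicate median over all transcripts. OL points lie above OPC points for Dusp1, Dusp6, the Sproutys and Spred1, and most points lie under the band of their own cell type, with Dusp1 and Dusp4 in OL replicate 1 at the ceiling above it.

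The difference between the slopes of the 2 cell types was tested directly. Spred1 was the 1 member of 8 called, with a slope of -0.59 log2 per hour in OPCs and -0.33 in OLs, 0.25 ± 0.10 shallower in OLs (SE, limma adjusted p 0.0433), where 32.1% of 8177 transcripts were called shallower and 0.391% steeper. With each library scaled to its 0 h median that balance turned, to 10.3% shallower and 23.8% steeper. Without that scaling the 7 other differences were positive as well, from 0.05 for Spry2 to 0.37 for Dusp1, and their median with Spred1 was 0.25 against 0.14 over all transcripts. With it, those of Dusp6, Dusp16, Spry1 and Spry2 were negative, and none was called. The Spred1 call did not hold with pseudocount 0.1, over the first 2 h, without the 1 h libraries, without OPC replicate 2 or 3, without either OL replicate, or under that scaling, where the difference was 0.0036. Without the 6 h libraries 5 of 8 members were called shallower (Dusp1, Dusp16, Spry1, Spry4, Spred1), where 19.5% of all transcripts were.

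Around the members, the pathway moved unevenly at 0 h. Of the 16 ERK-responsive targets listed for the comparison, 12 were tested: 5 were lower in OLs (Etv4, Etv5, Ccnd1, Myc and Ier2), 1 was higher (Fos), and the list's median log2 change was -0.54. Over all transcripts 15.8% were called lower and 13.8% higher. Etv4 and Etv5, Ets factors induced by FGF, went from 55.5 to 78.7 and 235 to 251 FPKM in OPCs to 7.77 to 8.74 and 34.5 to 40.1 FPKM in OLs, changes of -2.93 ± 0.24 and -2.69 ± 0.21 (SE, limma adjusted p 0.000244 and 0.0002), close in size to those of Dusp6, Spry1 and Spry4. Fos, an immediate early gene, was at 3.20 to 10.3 FPKM in OPCs and 16.4 and 29.4 FPKM in OLs.

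No tested gene of the chain above the inhibitors was called lower at 0 h. Of 21 tested Ras-ERK cascade genes, 4 were higher in OLs at 0 h (Gab1, Nf1, Ptpn11, Sos1) and 0 lower, with a median of 0.18, where 13.8% of all transcripts were called higher. Among 10 tested growth factor receptors 3 were higher (Erbb4, Fgfr2, Pdgfra) and 0 lower. The FGF receptors went different ways. Fgfr2 was at 3.69 to 3.93 FPKM in OPCs and 26.7 and 18.7 FPKM in OLs. Fgfr1 was lower in both OLs but not called, at 38.9 to 46.6 FPKM in OPCs and 18.9 and 31.9 FPKM in OLs (adjusted p 0.0559, limma). Fgfr3 overlapped. Of 7 tested p38 and JNK cascade genes, targets of Dusp10 and Dusp16 products among them, 3 were lower (Mapk11, Map2k6, Mapk14) and 0 higher, where 15.8% of all transcripts were called lower, and of 5 other MAP kinase phosphatases and Sprouty or Spred relatives, Dusp8 was higher and Spred3 lower.

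The pathway's half-lives were called in few cases: 2 growth factor receptors longer (Fgfr1 and Fgfr3) and 1 shorter (Erbb4) of 10, 1 of 5 phosphatase relatives longer (Dusp3), these 3 at the ceiling in both OL replicates, 1 of 10 ERK-responsive targets longer (Ier2), and 0 of 21 cascade genes and 0 of 7 p38 and JNK genes. Fgfr1, a receptor for the bFGF of the OPC medium, had 2.43, 2.43 and 2.50 h in OPCs. The values at the ceiling show no spread between the OL replicates and make these changes lower limits, so that their errors are too small. Where none was called, the largest changes were those of Rasa2 and Ksr1 in the cascade (2.57 and 1.98, adjusted p 0.0819 and 0.0956, limma) and of Map2k7 and Mapk14 among the p38 and JNK genes (1.01 and 0.92, adjusted p 0.214 and 0.168). The lists were chosen with earlier results of these data known, and over all transcripts 3.39% of half-lives were called longer and 0.148% shorter.

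**Figure D5:**
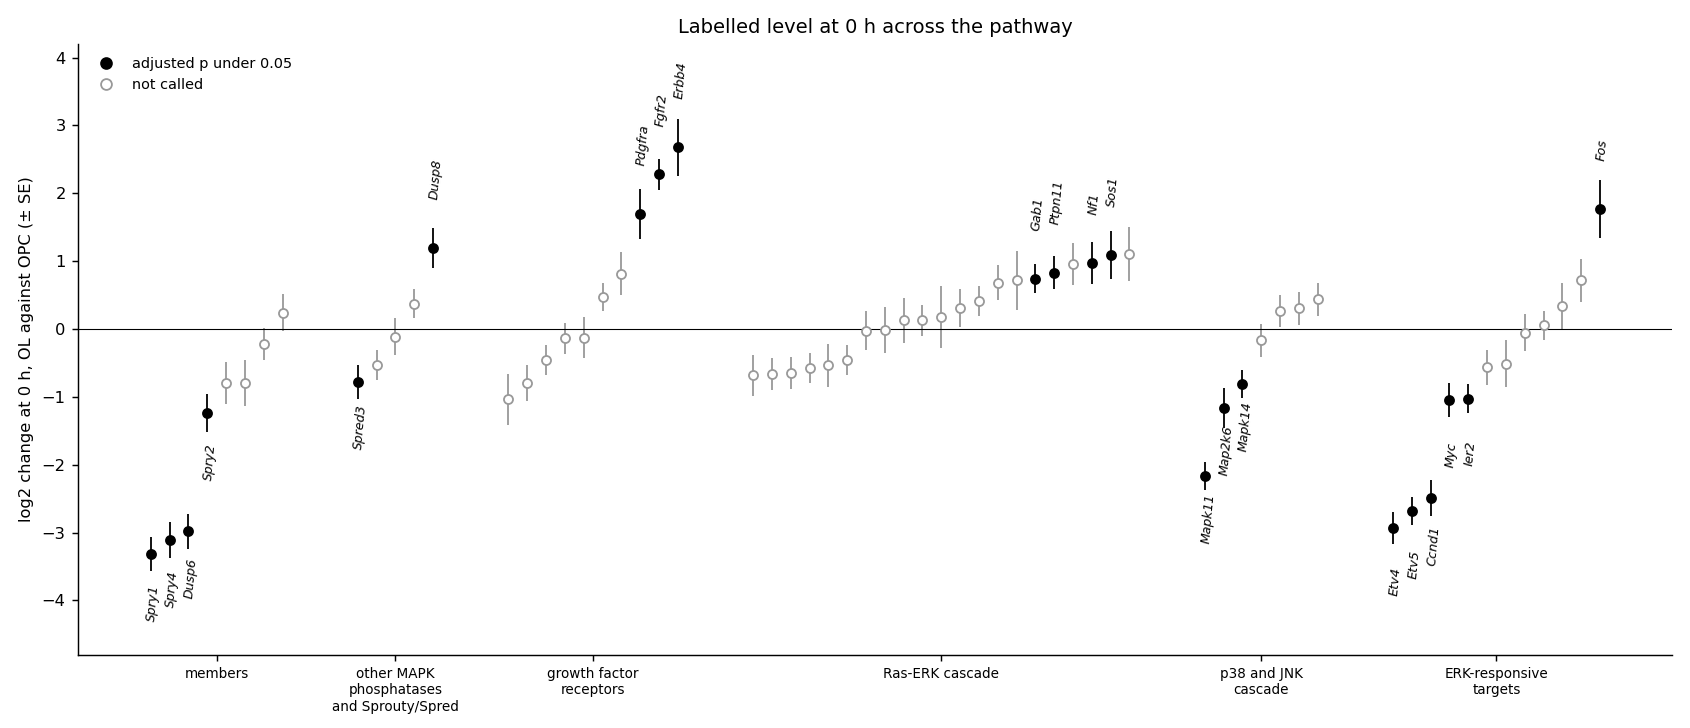
Log2 change of the labelled level at 0 h, OL against OPC, with its SE, for each tested gene of the members and of 5 pathway lists, ordered by size within a list. Filled points passed an adjusted p under 0.05: 4 members and 5 ERK-responsive targets lie below 0, and the called receptors and Ras-ERK cascade genes lie above it.

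The members' courses resembled each other to different degrees over the 25 libraries, as log2(FPKM + 1) less the library median. These libraries share cultures and time points, so the correlations are a description. The transcript most like Dusp6 of all 8177 was Spry4 (Pearson's r 0.969), and Spry4 in turn was most like Dusp6. Spry1 was most like Spry4 (0.935), with Dusp6 next (0.928). Spry2 stood nearer to Fem1c (0.919) than to any member, of which Dusp6 (0.802) and Spry1 (0.801) came first.

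Outside that group, Dusp1 was most like Jun (0.863) and had r of 0.131 to 0.596 with the other members. Spred1 was most like Ythdf1 (0.947), Dusp16 most like Nhsl1 (0.886), with Spred1 as its nearest member (0.784), and Spred2 most like Meis1 (0.893). Dusp6, Spry1 and Spry4 thus formed the closest trio in these libraries, and they are the members with the largest 0 h differences. As r was taken over both cell types together, differences between them enter it, so these observations are not independent.

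In codon use, described here without a test, 8 of 10 members lay above the median GC content at the third codon position, and 7 of 10 lay below the median share of phenylalanine codons spelled UUU and 7 of 10 below that of lysine codons spelled AAA. GC at the third codon position ran from 44.1% in Spred1 to 82.7% in Dusp4, around a median of 60.6% over all transcripts. The UUU share was 0% in Spry1 and Spry4 and 73.7% in Spred1, where the median was 44.4%, and the AAA share ran from 14.3% in Spry4 to 50% in Spred1, around a median of 37.5%.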

How the data were processed

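Per the labels and the study's methods, the authors clipped adapters, aligned reads with HISAT2 2.1.0 to GRCm38, and derived FPKM with StringTie 1.3.5 for 1 coding transcript per gene. They scaled the later time points by spike-in RNA and left out transcripts under 1 FPKM at 0 h or listed at 0 at 1 and 2 h. The deposited half-lives are their least absolute deviation fits of 1 exponential, with values over 6 h set to 6 h. The 1 OPC library without biotin was not analysed here, so no background on the beads was subtracted.

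Members were matched by symbol. Levels were tested as log2(FPKM + 1) and half-lives as log2 hours with limma 3.58.1 (R 4.3.3) and Benjamini-Hochberg adjustment over all transcripts, at 0.05. Half-life and 0 h fits compared 3 OPC with 2 OL replicates, and slope and 1 h fits held the replicate as a block. The scripts were tested on simulated data. FPKM carry no read counts, so depth is unknown and no counting interval is given. The members and gene lists were chosen with earlier results of these data known. Of each pathway list, the genes with the 2 largest called half-life changes were named, or the 2 largest where none was called. In the Ras-ERK cascade list, 1 gene is not reported here. The genes called at 0 h were named after their values were seen. 3′ UTRs were read from GENCODE M21 transcripts on GRCm38. For sequence counts, UTRs of at least 50 bases were used. Alternatives comprised pseudocount 0.1, a 0 h minimum of 5 FPKM, other scalings, blocks, time points and refits, and each replicate left out. The refits from 0, 1 and 2 h and by least squares were added after seeing the data.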

Additional observations from a re-analysis of the deposited data

Results flagged for a closer look

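The slope of Spred1 over the chase differed between the cell types by a direct test, 0.25 log2 per hour shallower in OLs (limma adjusted p 0.0433, with 0.0109 to 0.979 in the alternative fits), and it fell in all 5 replicates. The difference was 0.18 without OPC replicate 2, 0.51 without the 6 h libraries and 0.0036 with each library scaled to its 0 h median (adjusted p 0.979, limma). Over all transcripts 32.1% were called shallower, above the share of 1 in 8 members. No group had the 4 samples needed to look for single samples that stand apart.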

How the results depend on the processing

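Over 536 recomputed values of single members, 476 kept direction and side of the threshold, 33 lost the call, 8 gained one and 19 changed sign. The members called numbered 0 under every half-life alternative, and 4 at 0 h under every setting that kept all replicates (3 to 6 leaving one out). Scaling each library to the 0 h median left 0 OPC slopes, 5 OL slopes and 0 slope differences called. OL slopes over 0, 1 and 2 h, fitted to fewer libraries, gave 5, and OPC slopes over these times gave 8. Slope differences numbered 0 with pseudocount 0.1, 0 without the 1 h libraries, 5 without the 6 h libraries, 1 over 0, 1 and 2 h (Spry4, where 5 of 8177 transcripts were called) and 0 to 2 leaving a replicate out. The cause was not tested. Signs turned, none called on either side except the OL slope of Dusp4, under the median scaling for slope differences (Dusp6 -0.15, Dusp16 -0.0445, Spry1 -0.0089, Spry2 -0.22), the OL slope of Dusp4 (0.0152), OPC first hours (Spred1 0.10, Spred2 0.19) and OL first hours (Dusp1 0.23, Spry2 0.21). Half-life changes turned when centred (Dusp6 -0.0479, Dusp16 -0.714, Spred1 -0.29), when refitted from 0, 1 and 2 h (Dusp16 -0.0441), and leaving a replicate out (Dusp16 -0.398 to 0.775, Spred2 -0.510 to 0.300). Slope differences turned without OL replicate 1 (ranges leaving one out -0.0435 to 0.306 for Dusp6 and -0.0213 to 0.115 for Spry2) and over 0, 1 and 2 h (Spred2 -0.0543).

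Over all transcripts, half-life calls numbered 275 longer and 12 shorter as deposited, 0 and 1 with each replicate centred on its median, 19 and 5 when refitted by least squares, 10 and 45 from 0, 1 and 2 h, 91 and 194 after replicates were put on one mean decay curve, and 15 and 15 without the 6 h libraries. With the replicate block, 0 half-life calls remained of all transcripts (1554 at an unadjusted p under 0.05) and 0 of the members, and 4 members were called at 0 h. The numbers do not pair OLs with OPCs by any label, and same-numbered deviations correlated at -0.002 and -0.105 for half-lives and 0.059 and 0.01 for 0 h levels. Without the block, 8 OPC and 9 OL slopes and 1 difference were called. The OL first hour could not be fitted without either OL replicate. With 2 OL replicates and no counts, differences under the replicate spread could not be resolved.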
